A study of Mus musculus with 4 samples.

Results

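The genes described here are 10 chemokine ligands, Ccl1, Ccl3, Ccl4, Ccl5, Ccl9, Ccl17, Ccl22, Cxcl10, Xcl1 and Ppbp, of 19505 genes that had a named feature on the arrays. They were picked by name, with earlier results of the same comparison known, so their differences between the groups are given as descriptions and without a test. All 10 were measured, each by 1 feature, and none was removed by a filter on low values. CD8+ T cells from the spleen and lymph nodes of C57/BL6 mice were cultured for 3 days with bead-bound antibodies against CD3, part of the T cell receptor complex, and CD28, a receptor for co-stimulation, and with IL-2, a T cell growth factor. The 2 control cultures were left untreated and the 2 treated cultures received 25 µM spermidine, a polyamine. The labels give no age or sex of the mice and do not say whether cells of several animals were pooled, and they call the samples biological replicates without naming the animals or cultures. The question was what spermidine in the medium changes in the transcripts of such cells.

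Chemokines are small secreted proteins that direct the movement of leukocytes through G-protein-coupled receptors, and their families (CC, CXC, XC) are named after the spacing of conserved cysteines near the amino terminus. Activated CD8+ T cells are known sources of Ccl3, Ccl4, Ccl5 and Xcl1, with which they draw other lymphocytes, monocytes and dendritic cells to the site where they meet antigen, and Ccl1 is made by activated T cells as well. Ccl9, Ccl17, Ccl22 and Cxcl10 are best known from macrophages and dendritic cells, although T cells can also transcribe some of them, and Ppbp is stored in the granules of platelets. The grouping into T cell, myeloid and platelet chemokines below follows that textbook knowledge and not these data.

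Array medians ranged from 5.13 to 5.25 (log2 signal of gene features), and correlations across features between pairs of arrays ranged from 0.989 to 0.994. Antigenomic features, made of probes without a genomic match, gave the background level: their 95th percentile, 6.35 as a mean of the 4 arrays. A signal below it may hold little specific signal, and the size of differences there may be distorted. By this mark 3 of the 10 ligands (Ccl3, Ccl4 and Ccl5) were above background on all 4 arrays, 2 (Cxcl10 and Ccl22) on some, and 5 (Ccl1, Xcl1, Ccl9, Ccl17 and Ppbp) on none. In total RNA of a culture, fewer cells of a type and less RNA per cell cannot be told apart. Markers of the labelled cell type were present: all 9 measured genes of a list of CD8+ T cell genes were above background on every array, with the co-receptor gene Cd8a at 16.66 and 16.68 without and 16.58 and 16.57 with spermidine.

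The promoters of the ligands with the largest differences (Ccl3, Ccl22 and Ppbp) and with the widest gap between the spermidine arrays (Cxcl10) are shown because of those values. Each run holds the 250 bases before the annotated start, 5′ to 3′ on the gene's own strand, from RefSeq (GRCm38.p6), and capitals mark matches to any of 4 motifs: the NF-kappa-B consensus, the interferon-stimulated response element (the tetramer GAAA and its repeat after a gap of 2 bases), a site for the factor AP-1, spelled TGANTCA, and the core of the TATA box, spelled TATAAA. Matches on either strand were counted; the AP-1 letters are their own reverse complement, so 1 strand covers both.
Ccl3, chr11:83649379-83649628, minus strand: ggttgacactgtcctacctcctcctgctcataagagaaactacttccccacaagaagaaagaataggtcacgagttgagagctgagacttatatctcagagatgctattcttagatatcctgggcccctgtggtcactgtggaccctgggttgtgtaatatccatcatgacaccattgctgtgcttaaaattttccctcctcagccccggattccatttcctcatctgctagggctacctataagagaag
Ccl22, chr8:94745434-94745683, plus strand: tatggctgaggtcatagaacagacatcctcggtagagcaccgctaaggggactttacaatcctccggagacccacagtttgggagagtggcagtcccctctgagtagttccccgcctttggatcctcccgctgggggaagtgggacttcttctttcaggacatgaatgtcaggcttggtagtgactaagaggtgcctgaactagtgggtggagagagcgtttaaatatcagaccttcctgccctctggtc
Cxcl10, chr5:92348890-92349139, minus strand: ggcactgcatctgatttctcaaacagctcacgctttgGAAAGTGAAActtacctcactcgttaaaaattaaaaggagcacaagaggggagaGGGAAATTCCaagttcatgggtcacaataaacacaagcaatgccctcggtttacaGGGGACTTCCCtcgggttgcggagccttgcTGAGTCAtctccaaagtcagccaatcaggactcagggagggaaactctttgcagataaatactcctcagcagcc
Ppbp, chr5:90768268-90768517, plus strand: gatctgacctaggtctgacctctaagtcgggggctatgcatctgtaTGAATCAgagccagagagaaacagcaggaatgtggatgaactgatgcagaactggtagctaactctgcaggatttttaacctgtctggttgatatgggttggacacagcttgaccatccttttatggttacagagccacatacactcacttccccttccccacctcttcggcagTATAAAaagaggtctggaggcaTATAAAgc
The window of Cxcl10 held the interferon-stimulated response element 213 bases before the start, an AP-1 site at 74 bases and NF-kappa-B matches at 159 and 104 bases, the last overlapped by a match on the opposite strand. The window of Ppbp held a match to the AP-1 letters at 204 bases and TATA boxes at 30 and 8 bases. The N of the AP-1 letters allowed any base, and it was A in Ppbp and Ccl9 and G in Cxcl10. None of the 4 motifs occurred in the windows of Ccl3 and Ccl22. Of the 10 ligands 8 were matched to a window (Ccl4 and Ccl5 were not). Of those 8, 3 held an NF-kappa-B match, 1 the interferon element, 3 the AP-1 letters and 2 a TATA box. Over all 32851 windows of the same length the shares were 7.25%, 2.98%, 6.75% and 12.4% in that order. A match is a description of letters and not a shown binding site.

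Among the T cell chemokines, Ccl3 was higher in both spermidine cultures, Ccl4 was higher on average with overlapping groups, and Ccl5 hardly differed. Ccl3 (macrophage inflammatory protein 1 alpha), which attracts monocytes, T cells and NK cells, had log2 signals of 9.35 and 9.03 without and of 10.12 and 10.89 with spermidine. The groups did not overlap, and the difference was 1.70 times as large as the wider of the gaps inside a group. The control mean was 9.19 ± 0.22 (SD, n = 2) and the spermidine mean 10.50 ± 0.55 (SD, n = 2), a log2 difference of 1.31 ± 0.30 (SE) or 2.48-fold. Here and below the SE of a difference comes from limma, which draws each feature's variance toward a value common to all features. From a gene's own 4 arrays it would be 0.42 for Ccl3, 0.66 for Ccl22, 0.76 for Cxcl10 and 0.80 for Ppbp, wider than stated. For Ccl5 it would be 0.16, narrower than stated. Of the 10 ligands Ccl3 was the only one that was above background on every array and had groups that did not overlap.

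Ccl4 (macrophage inflammatory protein 1 beta), whose gene neighbours Ccl3 and whose product acts on many of the same cells, stood at 7.07 and 7.60 without and at 7.59 and 8.23 with spermidine. The lower spermidine array and the higher control array were level, so the groups overlapped, and the log2 difference of 0.58 ± 0.30 (SE) was 0.894 times the larger gap within a group. Without spermidine replicate 2 it was 0.25 and without spermidine replicate 1 it was 0.90. In the RefSeq annotation the gene models of Ccl3 and Ccl4 overlap by 755 bases, and whether that bears on their signals was not tested.

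Ccl5 (RANTES), a chemokine typical of effector and memory CD8+ T cells, stood at 9.71 and 9.84 without and at 9.65 and 9.96 with spermidine. The spermidine arrays bracketed the control arrays, and the log2 difference was 0.03 ± 0.23 (SE). Xcl1 (lymphotactin), which attracts the dendritic cells that cross-present antigen to CD8+ T cells, had 5.50 and 4.90 without and 5.13 and 4.91 with spermidine, all below background. Its difference of -0.17 ± 0.27 (SE) was smaller than the gap between the control arrays. Ccl1, the ligand of Ccr8, had 4.19 and 4.72 without and 3.83 and 4.05 with spermidine. It was the only ligand with both spermidine arrays below both control arrays (log2 difference -0.52 ± 0.26, SE), at signals below background throughout; the value was -0.25 without control replicate 2 and -0.78 without control replicate 1.

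**Figure D1:**
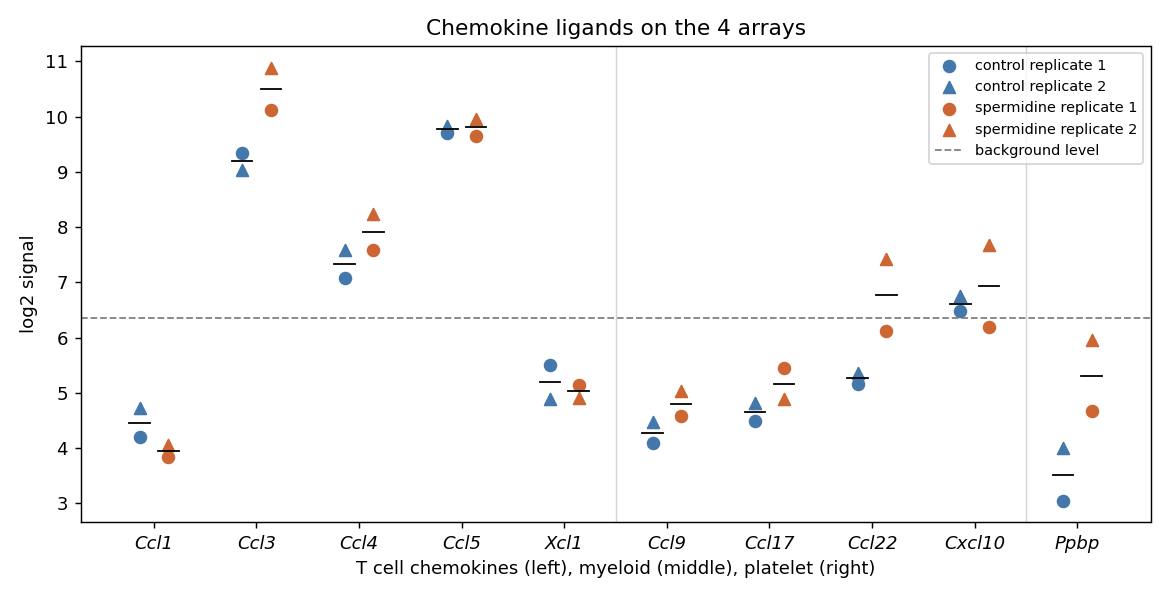
Log2 signal (vertical axis) of the 10 chemokine ligands on each array: control in blue, spermidine in orange, circles replicate 1, triangles replicate 2, short lines the group means, dashed line the background level of 6.35. Ccl3 lies between 10.12 and 10.89 with spermidine and at 9.03 and 9.35 without, while Ccl5 overlaps; spermidine replicate 2 is the highest array in 7 of the 10 ligands.

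The 4 myeloid chemokines were all higher on average with spermidine, most in Ccl22, but only 2 of them reached background on any array. Ccl22 (macrophage-derived chemokine) and Ccl17 both act on the receptor Ccr4, which is found on some T helper cells and on some activated CD8+ T cells. Ccl22 had log2 signals of 5.17 and 5.37 without and of 6.13 and 7.43 with spermidine. The groups did not overlap, with 1 spermidine array above background and the other just below it. The means were 5.27 ± 0.14 (SD, n = 2) without and 6.78 ± 0.92 (SD, n = 2) with spermidine, and the log2 difference was 1.51 ± 0.40 (SE). Without spermidine replicate 2 it was 0.86.

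Ccl17 had 4.49 and 4.82 without and 5.45 and 4.88 with spermidine, all below background, with groups that did not overlap but lay close together. Its log2 difference was 0.51 ± 0.27 (SE), and it was the only ligand in which spermidine replicate 1 was the highest array; without that replicate it was 0.22. Ccl9, a ligand of Ccr1 made by myeloid cells, had 4.08 and 4.47 without and 4.57 and 5.03 with spermidine. Those groups did not overlap either (log2 difference 0.52 ± 0.26, SE), again below background, and leaving out control replicate 1 or spermidine replicate 2 gave 0.33 or 0.30. Cxcl10, the interferon-induced ligand of Cxcr3, had 6.48 and 6.75 without and 6.19 and 7.68 with spermidine. Its spermidine arrays were thus the lowest and the highest of the 4, and the log2 difference of 0.32 ± 0.44 (SE) turned to -0.42 without spermidine replicate 2 and was 1.07 without spermidine replicate 1.

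Ppbp (platelet basic protein, also Cxcl7), whose processed form attracts neutrophils through Cxcr2, had the largest difference of the 10, at signals below background. It stood at 3.05 and 3.99 without and at 4.66 and 5.95 with spermidine, with no overlap. The means were 3.52 ± 0.67 (SD, n = 2) and 5.30 ± 0.91 (SD, n = 2), a log2 difference of 1.78 ± 0.46 (SE) that was 1.14 without spermidine replicate 2. Since all 4 signals were below background, the value is a difference of dim signals and no measure of a fold.

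In the limma fit over all 22206 gene features, 0 (0%) had a Benjamini-Hochberg adjusted p under 0.05, so none of the 10 ligands is among called genes, and 1558 features (7.02%) had an unadjusted p under 0.05. The groups did not overlap in 6 of the 10 ligands and in 36.7% of all features: spermidine was the higher group in 5 ligands and 18.3% of features, and the lower in 1 ligand and 18.4% of features. The rule drew on the same comparison, so these counts carry no weight beyond description. The median log2 difference of the ligands was 0.52, with a range from -0.52 to 1.78, beside a median of -0.01 over all features; it was 0.03 for the 5 T cell chemokines and 0.52 for the 4 myeloid ones. Spermidine replicate 2 was the highest array in 7 of the 10 ligands and in 27% of all features, and without it the median of the ligands was 0.28. Leaving out control replicate 1 instead gave 0.32, and leaving out spermidine replicate 1 gave 0.82.

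**Figure D2:**
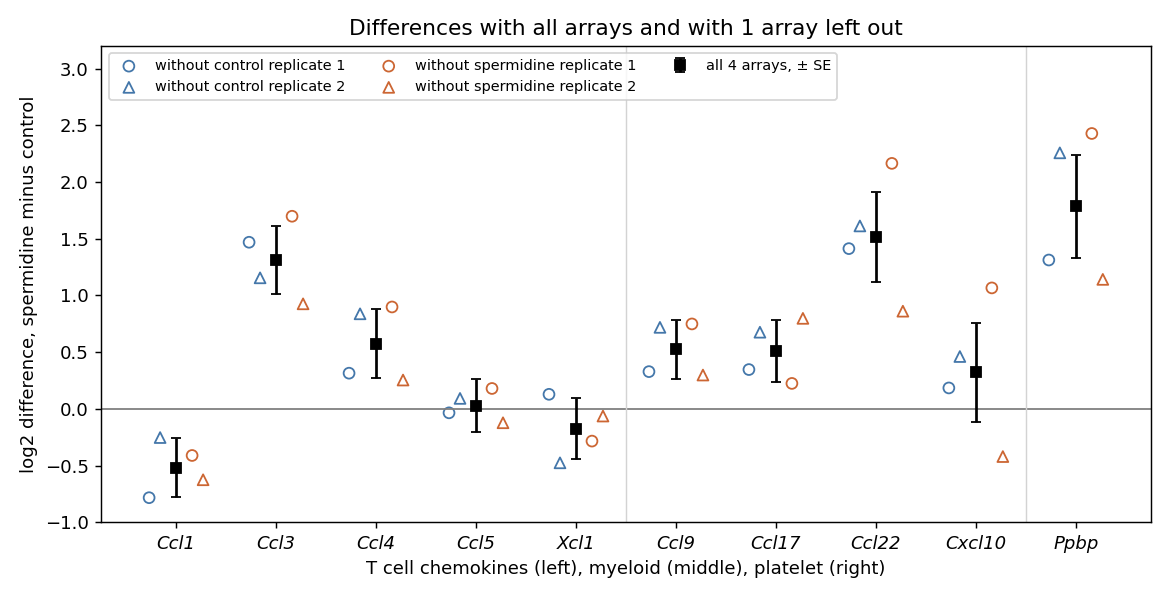
Log2 difference, spermidine minus control (vertical axis), of each ligand: black squares with all 4 arrays, bars ± SE, open symbols with 1 array left out (blue a control array, orange a spermidine array, circles replicate 1, triangles replicate 2). Ccl3, Ccl22 and Ppbp stay above 0 whichever array is left out, with lowest values of 0.93, 0.86 and 1.14, and the values of Ccl5, Xcl1 and Cxcl10 change sign.

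With protein-coding genes ordered by start position, 8 of the 10 ligand genes have another chemokine ligand gene next to them. Xcl1 and Cxcl10 do not by that rule, and Cxcl10 falls between Art3 and Nup54. The rule ignores strand and overlapping gene models, so it does not show that Cxcl10 lies apart from its family. In RefSeq, 5 of the 10 are on chromosome 11, 2 on chromosome 8, 2 on chromosome 5 and 1 on chromosome 1. On chromosome 11 the protein-coding order runs Ccl5, Ccl9, Ccl6, Ccl3, Ccl4. Their log2 differences were 0.03, 0.52, 0.63, 1.31 and 0.58 in that order. The remaining ligand on chromosome 11, Ccl1, is outside this run and stood at -0.52, and its neighbour Ccl8 stood at 0.01, both below background. Ccl6, a myeloid chemokine outside the 10, was 4.68 and 4.65 without and 5.03 and 5.56 with spermidine, below background (log2 difference 0.63 ± 0.26, SE). On chromosome 8, Ccl22 and Ccl17 flank Cx3cl1 (fractalkine), which had a log2 difference of 0.11 ± 0.23 (SE) at signals between 2.54 and 2.87. On chromosome 5, Ppbp lies between Cxcl5, which attracts neutrophils and stood at -0.05 ± 0.23 (SE), and the platelet chemokine gene Pf4, which stood at 0.33 ± 0.30 (SE), both below background.

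The rest of the family was dim. Of 29 other measured chemokine ligands, 28 were below background on all arrays, and 1, the gut and thymus chemokine Ccl25, was above it on all 4. Ccl25 had 7.67 and 7.69 without and 7.90 and 7.87 with spermidine, a log2 difference of 0.21 ± 0.22 (SE). Among these ligands 0 passed the test in either direction and 1 had an unadjusted p under 0.05, which was Ccl6 (adjusted p = 0.706, limma; higher in 2 of 2 spermidine arrays), singled out after its value was seen. Their median log2 difference was 0.09, with 19 higher and 10 lower, against -0.01 over all features. The other interferon-induced ligands of Cxcr3, Cxcl9 and Cxcl11, stood at -0.37 ± 0.26 (SE) and -0.25 ± 0.24 (SE), below background on every array, where Cxcl10 stood at 0.32.

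Receptors for these ligands were present in part, and none passed the test. Of 22 measured chemokine receptors 7 were above background on all arrays and 15 on none; 0 were called in either direction, and 1, Cxcr2, had an unadjusted p under 0.05 (limma). The median log2 difference of the receptors was 0.09. Groups that did not overlap were found in 8 of the 22 receptors, 5 with spermidine higher and 3 lower, and in 36.7% of all features. Ccr4, Cxcr6 and Ccr9 met a naming rule that asked for such groups, so their separation carries no weight beyond description. Ccr4, the receptor of Ccl17 and Ccl22, had 9.49 and 8.96 without and 8.87 and 8.20 with spermidine. Its groups did not overlap, with spermidine lower, and the log2 difference was -0.68 ± 0.31 (SE; adjusted p = 0.717, limma). Cxcr3, the receptor of Cxcl10, stood at 11.65 and 11.82 without and 11.81 and 11.59 with spermidine, a difference of -0.03 ± 0.23 (SE) with overlapping groups.

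Cxcr6, a receptor of resident and effector T cells, was 7.53 and 7.71 without and 7.99 and 8.14 with spermidine (log2 difference 0.44 ± 0.23, SE; adjusted p = 0.741, limma). Ccr9, the receptor of Ccl25, was 7.66 and 7.55 against 7.95 and 7.88 (0.31 ± 0.22, SE; adjusted p = 0.815, limma). Both had groups that did not overlap, with spermidine higher, and neither passed. Ccr2 was above background with overlapping groups (0.20 ± 0.33, SE). Ccr1 (0.13), Ccr3 (0.46), Ccr8 (-0.20), Xcr1 (0.19) and Cxcr2 (-0.59), the receptors of Ccl3 and Ccl9, of eosinophil attractants, of Ccl1, of Xcl1 and of Ppbp, were all below background on every array.

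**Figure D3:**
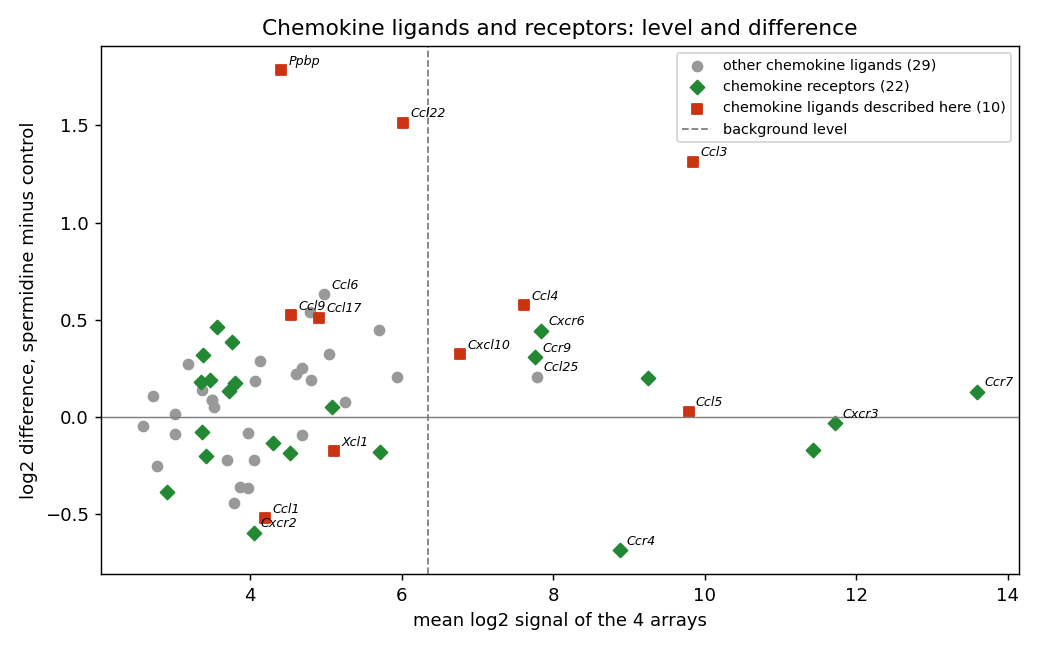
Log2 difference, spermidine minus control (vertical axis), against the mean log2 signal of the 4 arrays (horizontal axis) for the 10 chemokine ligands (red squares), 29 other chemokine ligands (grey circles) and 22 chemokine receptors (green diamonds); the dashed line is the background level. Of the other ligands 28 lie below background, and Ccr4 has the lowest difference of the receptors, at -0.68.

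Genes known to drive chemokine transcription in lymphocytes were followed as a further list. Of 20 measured genes (cytokines and the transcription factors of the STAT, IRF, NF-kappa-B and NFAT families among them), 0 were called in either direction, 1 had an unadjusted p under 0.05 (limma), and the median log2 difference was 0.05. Of these genes 12 were higher and 8 lower with spermidine. Groups that did not overlap were found in 6 of them, each with spermidine higher, where 36.7% of all features had such groups and 18.3% had them with spermidine higher. The members above background with such a separation were Nfatc1, a calcium-dependent factor of T cell activation (0.56 ± 0.23, SE), the NF-kappa-B subunit gene Rel (0.49 ± 0.25, SE), Stat5b, which acts downstream of IL-2 (0.41 ± 0.24, SE), and Stat6, which acts downstream of IL-4 (0.34 ± 0.22, SE). Their adjusted p-values were 0.706, 0.741, 0.771 and 0.803 (limma). Differences of like size in the other direction, with overlapping groups, were those of the cytokine gene Tnf (-0.48 ± 0.28, SE) and of Eomes, a factor of effector and memory cells (-0.50 ± 0.50, SE), both singled out after their values were seen. Ifng, which encodes the interferon that induces Cxcl10, stood at 8.53 and 8.24 without and 8.35 and 8.13 with spermidine, a difference of -0.14 ± 0.24 (SE) with overlapping groups.

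Marker genes of other cell types were measured in the same arrays, since myeloid cells and platelets are the usual sources of 5 of the ligands. The 10 measured macrophage markers averaged 4.05 and 4.09 (mean log2 signal per gene) without and 4.25 and 4.32 with spermidine. Of them 9 were below background on every array, among them Lyz2, Csf1r, Adgre1 and Itgam. The exception was Cybb, the phagocyte oxidase subunit, at 6.30 in both control arrays against 7.22 and 7.44 with spermidine. Of the 10 macrophage markers 7 were higher with spermidine, among them Lyz2 (log2 difference 0.86) and Mpeg1 (0.53), both below background. The 3 lower with spermidine were Csf1r (log2 difference -0.35), Itgam (-0.41) and Fcgr1 (-0.50), all below background. The 10 dendritic cell markers averaged 4.36 and 4.51 without and 4.57 and 4.88 with spermidine, and 8 were below background throughout, including Itgax, Flt3, Zbtb46 and Clec9a. The 2 above it were Cd83 and the class II gene H2-Aa. Cd83 stood at 7.22 and 7.70 against 8.04 and 8.91, and H2-Aa at 8.31 and 7.95 against 8.51 and 8.57. Activated lymphocytes and B cells also express these 2 genes. Differences in the dendritic cell list ranged from -0.20 to 1.14. The highest was that of Fscn1, below background on every array and singled out after its value was seen.

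The 11 platelet markers averaged 5.33 and 5.49 without and 5.63 and 5.79 with spermidine, with 8 below background on all arrays. Pf4, the platelet chemokine gene beside Ppbp, was 4.66 and 5.11 against 4.87 and 5.55, with overlapping groups. The integrin genes Itga2b and Itgb3, of which the second is also used by T cells, were above background and differed by 0.10 ± 0.22 and 0.80 ± 0.26 (SE), and Vwf, also an endothelial gene, was above it on 1 array (1.13 ± 0.32, SE). Gp9 (-0.06, overlapping groups) and Treml1 (-0.29, groups that did not overlap) were lower with spermidine, both below background. The 7 B cell markers averaged 5.84 and 5.86 without and 6.43 and 6.09 with spermidine, with Cd79a, Cd79b and Fcer2a above background on all arrays. The CD8+ T cell list averaged 14.58 and 14.61 against 14.40 and 14.52. In the macrophage, dendritic cell, platelet and B cell lists both spermidine arrays averaged above both control arrays. So they did for both the myeloid and the T cell chemokines, and for the mast cell and basophil and CD4+ T cell lists below. The genes higher with spermidine were 7 of 10 macrophage, 7 of 10 dendritic cell, 9 of 11 platelet and 7 of 7 B cell markers. They were 4 of 6 mast cell and basophil markers and 1 of 3 CD4+ T cell genes, beside 10901 of all 22206 features. The part of such cells in the chemokine differences was not tested.

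The 6 mast cell and basophil markers averaged 4.61 and 4.64 without and 4.79 and 4.99 with spermidine, with the protease gene Cpa3 above background (0.73 ± 0.27, SE). The 4 NK cell markers (4.92 and 4.72 against 5.03 and 4.51) and the 8 neutrophil markers (3.742 and 4.005 against 3.825 and 3.997) had overlapping groups. The 3 genes of CD4+ T cells averaged 5.70 and 5.83 without and 5.87 and 6.02 with spermidine. Of these, Cd4 stood at 7.11 and 6.84 against 6.59 and 7.24, with overlapping groups. Zbtb7b, the factor that sets the CD4 lineage, was higher in both spermidine arrays (0.76 ± 0.26, SE), and Cd40lg was below background. None of the genes of these lists passed the adjusted threshold (limma).

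**Figure D4:**
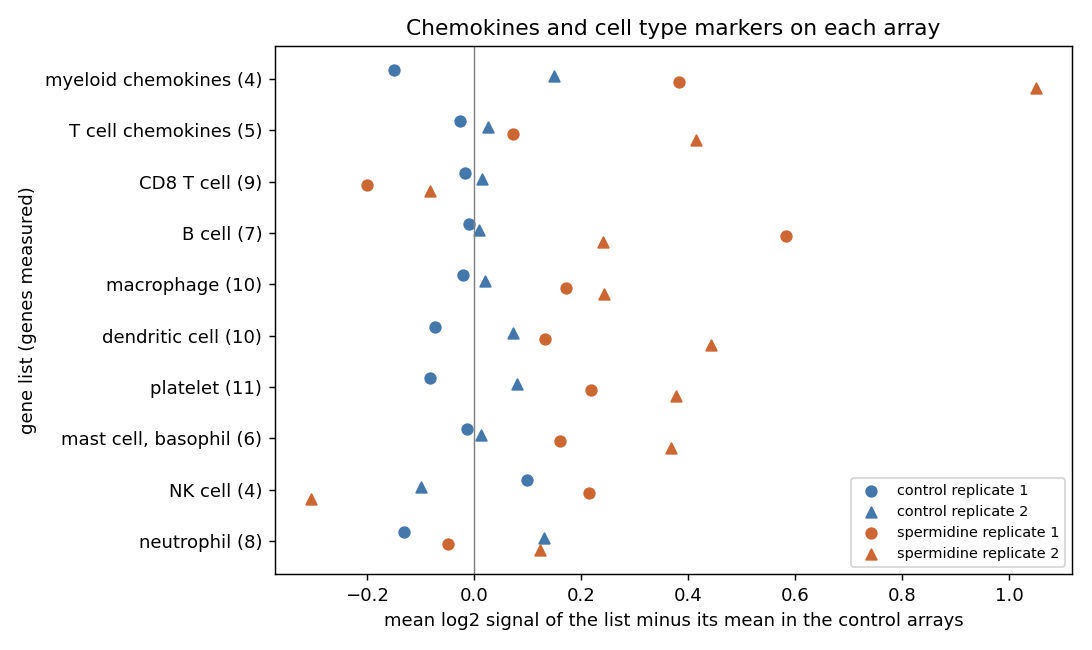
Mean log2 signal of each gene list on each array, as a difference from the list's mean in the control arrays (horizontal axis), for the myeloid and T cell chemokines and 8 cell type marker lists with the number of measured genes; control in blue, spermidine in orange, circles replicate 1, triangles replicate 2. The spermidine arrays lie above the control arrays for the macrophage, dendritic cell, platelet, B cell and mast cell lists and below them for the CD8+ T cell list.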

How the data were processed

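Log2 signals per feature of 4 Clariom S Mouse arrays (250 ng total RNA each) were used as deposited. Per the submitters' processing notes, the authors obtained them by RMA in Affymetrix Expression Console (versions not given in the sources used here); the log2 base was inferred from the values. RMA corrects background and normalizes by quantiles. The highest deposited value was 19.93, and the sources used here do not say whether a further transformation was applied. How far differences of dim features are compressed or stretched in these values was not tested. Of 28846 features 6640 control features were left out and 22206 tested in R 4.3.3 with limma 3.58.1 (two-sided, Benjamini-Hochberg, threshold 0.05, 2 residual and 5.96 prior degrees of freedom). Features were named through the platform annotation (19572 with 1 symbol, 2634 with none), and the brightest feature stood for a gene. The labels name no separate animals or cultures, so p-values measure only the spread between these samples, which may be technical, and the smallest p an exact permutation of 2 and 2 arrays allows is 0.333. The number of arrays limits the precision.

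The ligands and gene lists were chosen with earlier results of these data known. All 10 ligands are named, with 13 genes fixed by name, up to 6 genes of each family or inducer list with separated groups above background, by size of difference, and markers from the 4 with the highest signal in each list, others being named where they define a cell type. Some listed genes are not analysed here. The fit was tested on simulated data. Alternatives were other normalizations, filters, variance models, array weights, a replicate block, other feature rules and leaving out each array.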

Additional observations from a re-analysis of the deposited data

Results flagged for a closer look

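The spike-in control features, outside the gene comparison, were higher in the spermidine arrays: the mean log2 signal of 8 such features was 7.67 and 7.58 in the control and 7.98 and 8.15 in the spermidine arrays, a difference of 0.439. Its part in the chemokine differences was not tested.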

How the results depend on the processing

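With median centring, cyclic loess, features above the median level, an intensity trend in the prior variance, or the replicate number as a block, 1 feature was called in place of 0, each time Hmox1 and never a chemokine ligand; the cause was not tested. The other alternatives with all 4 arrays and those without 1 array called 0 features. With the replicate block 2350 features had an unadjusted p under 0.05, against 1558 without it, and the ligands' differences were the same by construction. Deviations of same-numbered arrays from their group means correlated at 0.21 across features, and the labels do not say that the numbers pair cultures. The other normalizations, the block, the array weights and the feature rule turned the sign of 0 of the 10 ligands' differences. Leaving out 1 array turned 3 of them (Ccl5, Xcl1 and Cxcl10). The median over the ligands ranged from 0.28 to 0.82 without 1 array, and from 0.50 to 0.52 in the alternatives with all arrays. The number of ligands with separated groups was 6, with a range of 6 to 7 under other normalizations; without 1 array it was 7 to 9, where fewer arrays make overlap rarer. The median of the other ligands was 0.01 without spermidine replicate 2 and 0.18 without spermidine replicate 1. The median of the receptors was -0.13 without spermidine replicate 1 and -0.03 without control replicate 2. Of the other ligands and receptors 0 were called under any alternative run. The signal over background limits Ccl1, Xcl1, Ccl9, Ccl17 and Ppbp most.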
